A study of Homo sapiens with 4 samples.

Results

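HSSY II is an established human synovial sarcoma line that carries SS18::SSX, the fusion oncoprotein of this tumor. The sites described here were SS18::SSX CUT&RUN peaks of DMSO-treated HSSY II cells that lay inside a gene body and overlapped no WDR5 peak of the same cells. A peak belonged to the set when it shared no base with any WDR5 DMSO peak, and when its center fell inside a protein-coding or lncRNA gene (GENCODE release 44, hg38) but outside the window from 1000 bp before to 100 bp after every annotated transcription start site (TSS). There were 5511 such sites among the 15141 SS18::SSX peaks, or 36.4%, of which 845 were centered in an exon and 4666 in an intron. The cells were treated with DMSO or with 2.5 µM MS67, a PROTAC that degrades WDR5, for 4 days, and each library also contained chromatin of added NIH-3T3 mouse cells as a spike-in. There was 1 library for each of the 4 combinations of treatment and antibody (SS18::SSX or WDR5), so no spread between replicates could be measured, no test between treatments was made, and the intervals given below are exact 95% binomial intervals that cover counting error only. These intervals treat the sites as independent, although many lie close together, so they may be too narrow, and whether they overlap is no test. The members were chosen by the DMSO peak calls of both antibodies, so the strength of these peaks and their lack of WDR5 are given as description. What the rule did not use was the position of the sites along genes and chromosomes, their DNA sequence, and the peak lists of the MS67-treated cells.

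SS18::SSX joins the SWI/SNF subunit SS18 to the C terminus of an SSX protein. SWI/SNF complexes use ATP to slide or evict nucleosomes, and the SSX portion directs the fusion to chromatin marked by Polycomb through ubiquitinated histone H2A, where developmental genes that are normally silent become active. WDR5 is a shared core subunit of the KMT2 complexes, which methylate histone H3 lysine 4 mainly at promoters and enhancers. Introns and exons away from the TSS can hold enhancers, alternative promoters and CpG islands, and gene bodies also contain the coding sequence itself.

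The 4 peak lists held 15141 SS18::SSX and 35605 WDR5 peaks with DMSO, and 1175 SS18::SSX and 14123 WDR5 peaks with MS67. Fold values are the pileup of fragments at the summit over the local background, each raised by 1, as MACS2 writes them. From the fold and p of each peak the whole-number pileup and the background could be recovered for 100% of peaks in all 4 lists, and the lowest background in a list, a measure of genome-wide coverage, was 0.541 fragments per base for SS18::SSX with DMSO and 0.737 with MS67, a ratio of 1.36. For WDR5 these values were 0.368 with DMSO and 0.168 with MS67. A peak that is missing from a list means that none was called there, and in a bulk assay fewer bound cells and weaker binding in each cell cannot be told apart.

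Shown first are the 150 bases around the summit of 6 intronic sites and 2 sites in coding exons, because these are among the strongest of the set and show the range of sequence that it covers. All are from the forward strand of hg38, written 5′ to 3′, with CpG dinucleotides in capitals. The intronic sites lay in MGMT (chr10:129520425-129520574), which encodes a DNA repair enzyme that removes alkyl groups from guanine, in KNDC1 (chr10:133219476-133219625), in CDH4 (chr20:61655977-61656126), which encodes R-cadherin, in ONECUT1 (chr15:52788608-52788757), a homeobox transcription factor, in RELN (chr7:103924023-103924172), whose product reelin guides migrating neurons, and in TLX1 (chr10:101136243-101136392), another homeobox factor. The exonic sites lay in THSD7A (chr7:11469822-11469971), which encodes a transmembrane protein, and PARD3 (chr10:34348031-34348180), a cell polarity scaffold.
MGMT: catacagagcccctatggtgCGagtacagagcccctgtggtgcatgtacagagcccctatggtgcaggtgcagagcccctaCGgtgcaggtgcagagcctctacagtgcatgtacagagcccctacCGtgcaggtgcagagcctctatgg
KNDC1: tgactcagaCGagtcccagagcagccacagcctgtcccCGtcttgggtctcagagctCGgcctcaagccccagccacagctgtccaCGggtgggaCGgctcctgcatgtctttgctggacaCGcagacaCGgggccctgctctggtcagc
CDH4: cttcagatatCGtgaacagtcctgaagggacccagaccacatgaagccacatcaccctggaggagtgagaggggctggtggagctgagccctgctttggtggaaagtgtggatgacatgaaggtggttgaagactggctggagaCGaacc
ONECUT1: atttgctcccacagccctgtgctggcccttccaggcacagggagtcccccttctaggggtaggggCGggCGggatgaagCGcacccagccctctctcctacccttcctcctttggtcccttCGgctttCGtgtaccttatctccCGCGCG
RELN: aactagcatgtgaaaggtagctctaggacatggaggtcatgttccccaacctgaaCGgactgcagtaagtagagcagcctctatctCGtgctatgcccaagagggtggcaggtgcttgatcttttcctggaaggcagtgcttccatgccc
TLX1: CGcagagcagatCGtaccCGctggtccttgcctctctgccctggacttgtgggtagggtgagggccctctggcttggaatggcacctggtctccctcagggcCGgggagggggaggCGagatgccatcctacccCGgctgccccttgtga
THSD7A: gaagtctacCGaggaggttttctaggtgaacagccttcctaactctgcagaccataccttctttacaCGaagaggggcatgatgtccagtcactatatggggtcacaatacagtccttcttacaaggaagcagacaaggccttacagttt
PARD3: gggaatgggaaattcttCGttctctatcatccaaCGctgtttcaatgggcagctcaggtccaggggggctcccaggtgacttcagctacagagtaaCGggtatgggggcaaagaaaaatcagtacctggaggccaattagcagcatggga
The MGMT window was a tandem array, in which 84.4% of bases matched the base 22 positions further on. Its neighbors in this group were not, and the best such match between 8 and 100 positions was 40.4% for KNDC1 and 38.2% for PARD3. The ONECUT1 window held 8 CpGs and 2 GC boxes (GGGCGG on either strand), whereas those of CDH4 and RELN held 2 CpGs each and no GC box. The SS18::SSX peaks over MGMT, KNDC1 and ONECUT1 were called again with MS67, and those over CDH4, RELN, TLX1, THSD7A and PARD3 were not.

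Sites of this kind were mostly narrow and modest, as were SS18::SSX peaks at large. The median width was 200 bp (quartiles 158 and 311), the median fold 3.79 (3.07 and 4.43) and the median −log10 q 3.63, with a median summit pileup of 18 fragments. Over all SS18::SSX DMSO peaks these medians were 216 bp, 3.99, 3.68 and 16 fragments. At the edge of the rule, 3 sites touched a WDR5 peak without sharing a base and 200 lay within 100 bp of one, while 321 of the 2563 gene-body SS18::SSX peaks that did overlap WDR5 shared at most 100 bp with it. The nearest WDR5 peak was at a median of 2934 bp, 29.1% of sites had one within 1 kb, and 28.4% had none within 10 kb. Another SS18::SSX peak lay within 10 kb of 66.0% of the sites, against 63.0% of all SS18::SSX DMSO peaks. The 31 bases at the summit occurred more than once in hg38 for 182 sites, or 3.30%, against 2.89% of all SS18::SSX DMSO peaks.

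Exonic sites were denser than intronic ones. Exons made up 5.90% of the gene-body sequence outside promoters but held 15.3% of the sites (14.4 to 16.3), which is 8.38 sites per Mb of exon against 2.90 per Mb of intron. With promoters widened to 2000 bp on either side the exon share fell to 9.80%, with exons then 5.08% of the sequence and 4.72 sites per Mb of exon against 2.33 per Mb of intron. Of the exonic sites 415 were centered in coding sequence, 213 in exons of lncRNAs, 139 in 3′ UTRs and 78 in 5′ UTRs. They were also nearer to a TSS, at a median of 1707 bp against 10417 bp for intronic sites, and 33.0% of them lay within 1 kb of one against 11.3%. Among the intronic sites 1551 were in the first intron of the longest transcript, 2462 in a later one and 653 in part of the gene that this transcript does not span. Intronic sites leaned to the start of genes, with 29.9% in the first 20% of the host gene and 16.0% in the last 20%. For exonic sites both ends of the gene were favored, with 28.5% in the first and 26.9% in the last 20%.

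Base composition differed between exonic and intronic sites. In 300 bp around the summit the median G+C content was 63.0% at exonic sites and 57.0% at intronic sites, compared with 50.7% and 47.3% in windows 5 kb to either side of them. The ratio of observed to expected CpG had a median of 0.472 at exonic sites, 0.276 at intronic sites and 0.617 at promoter peaks without WDR5. Hence 33.8% of exonic and 10.1% of intronic windows reached the levels commonly used for a CpG island (G+C of at least 50% and a ratio of at least 0.6), against 8.70% and 6.16% of their flanking windows. In the plot of base composition, intronic sites differ from their flanks in G+C but hardly in CpG ratio, at 0.276 against 0.252.

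**Figure D1:**
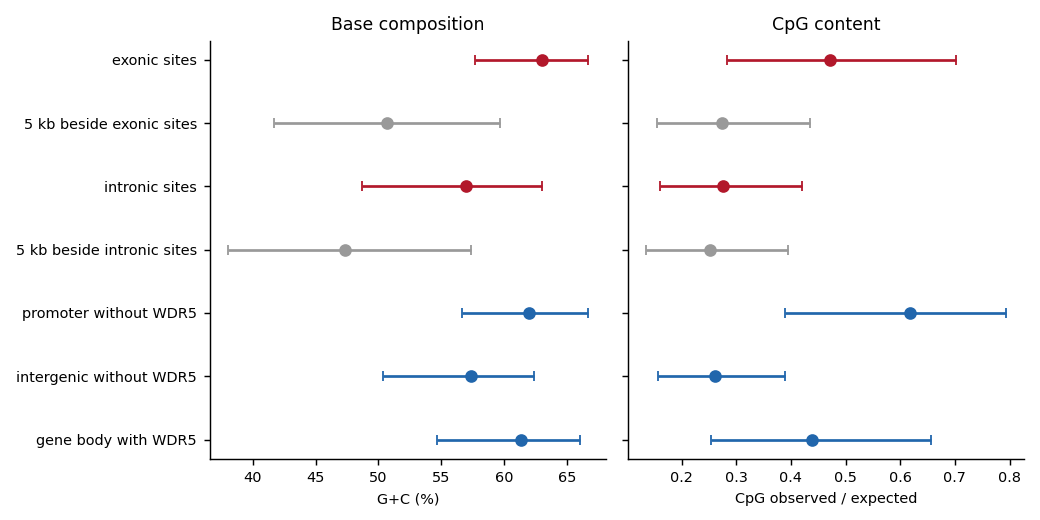
Median (points) and quartiles (bars) of G+C content, in percent, and of the ratio of observed to expected CpG in 300 bp around SS18::SSX summits, by class of peak, and in windows 5 kb beside the exonic and intronic sites. Exonic sites lie near the promoter peaks in G+C (63.0% against 62.0%), whereas intronic sites match the intergenic peaks without WDR5 (57.0% against 57.3%) in G+C.

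Among 8 short motifs searched on both strands, none of which contains another, the GC box GGGCGG, recognized by SP and KLF factors, was present in 33.5% of exonic and 19.2% of intronic windows, in 15.4% and 12.2% of their flanks and in 47.6% of promoter peaks without WDR5. AGGGGGC, the core of the CTCF motif, was found in 15.1% and 11.8% of site windows and in 7.28% and 6.37% of flanks, and the ETS motif CCGGAA in 8.99% and 5.62% against 4.56% and 3.94%. Both GGGCGG and AGGGGGC are G-rich, as the sites are, and the part of base composition in these shares was not tested. The AP-1 motif TGANTCA (5.21% and 7.29%, flanks 7.46% and 7.52%), the CCAAT box (21.4% and 27.1%, flanks 29.0% and 30.1%), the forkhead motif TGTTTAC (1.18% and 2.14%, flanks 2.66% and 3.73%) and the SOX/TCF motif ACAAAG (12.7% and 15.4%, flanks 16.3% and 18.6%) were each less frequent in the site windows than in their flanks. The E-box CANNTG was common everywhere, in 77.8% and 82.3% of site windows and 79.5% and 78.7% of flanks. A match says only that these letters are in the window.

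The sites crowded toward the ends of chromosomes. Gene-body sequence within 5 Mb of a chromosome end is 7.67% of all gene-body sequence, yet 2136 sites, or 38.8% (37.5 to 40.1), were there. That is 16.0 sites per Mb against 2.10 per Mb further in, a ratio of 7.62. The density fell from 27.0 per Mb in the outer 2 Mb to 8.70 between 2 and 5 Mb, 2.40 between 5 and 20 Mb and 1.99 beyond 20 Mb. WDR5 peaks in gene bodies leaned outward much less, with 2909 of 18678 (15.6%) within 5 Mb. Of all SS18::SSX DMSO peaks 35.6% (34.9 to 36.4) were within 5 Mb, so the crowding was not particular to these sites. By class, 29.1% of SS18::SSX peaks in gene bodies with WDR5 (27.4 to 30.9), 27.9% of promoter peaks without WDR5 and 45.8% of intergenic peaks without WDR5 were within 5 Mb. The outer 5 Mb at the far end of chromosome 20 held 181 sites, the start of chromosome 1 held 178 and the far end of chromosome 10 held 154. The densest single stretch of 1 Mb began at 63 Mb of chromosome 20 and contained 101 sites in 17 genes. Per Mb of gene body, chromosome 20 (7.15) and chromosome 19 (5.95) led the chromosomes.

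Sites near chromosome ends had more fragments over a higher local background, and a lower fold. Within 5 Mb the median pileup was 31, the median background 9.91 and the median fold 3.06, and beyond it they were 14, 2.58 and 4.14. The G+C content was 62.7% within 5 Mb and 52.7% beyond. Regions of raised background were the 5% of 1 Mb bins with the highest median background at WDR5 DMSO peaks. Only the 2301 bins with at least 3 such peaks were ranked. These regions held 35.6% of the sites within 5 Mb and 8.50% of those beyond. The part of the background and of base composition in the density of sites was not tested. Neither was the copy number of these segments.

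**Figure D2:**
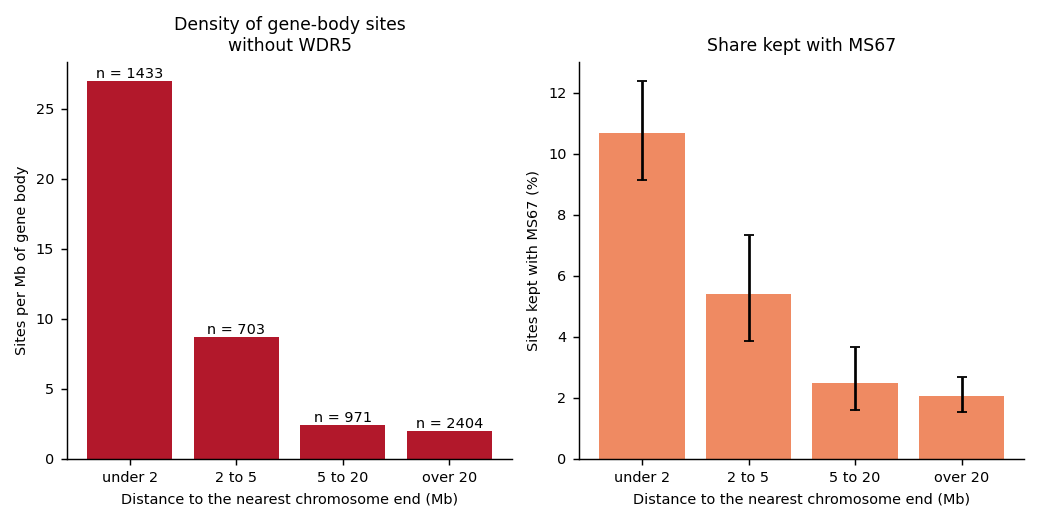
Left, gene-body SS18::SSX sites without WDR5 per Mb of gene-body sequence, by distance to the nearest chromosome end in Mb. Right, share of these sites in percent that an SS18::SSX peak with MS67 overlaps, with exact 95% intervals as bars. The density is 27.0 per Mb in the outermost 2 Mb and 1.99 per Mb beyond 20 Mb, and the share kept goes from 10.7% to 2.04%.

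A small number of genes hosted long series of sites. In all, 2596 genes hosted a site, 2031 of them protein-coding (10.2% of protein-coding genes) and 565 lncRNAs. A single site was found in 1696 of the genes, 706 held 2 to 4, and 194 genes held 5 or more, together 36.7% of all sites. Protein-coding hosts were longer than protein-coding genes at large, with a median of 60.8 kb against 27.5 kb. PTPRN2, which encodes a phosphatase-like membrane protein of secretory vesicles, led with 68 sites over 1049 kb of chromosome 7, 67 of them intronic and 16 kept with MS67, and another 37 SS18::SSX peaks inside it did overlap WDR5. PRDM16, a zinc finger transcription factor of brown fat and blood stem cells, had 63 sites over 369 kb and only 2 SS18::SSX peaks with WDR5. NFATC1, a transcription factor switched on by calcineurin, packed 52 sites into 133 kb, or 39.0 per 100 kb, and CBFA2T3, a corepressor of the ETO family, 37 sites into 102 kb. CDH4 had 34 sites over 688 kb, and MCF2L, a guanine nucleotide exchange factor, had 31. The sites of these 6 genes were centered at a median of 0.917 Mb (NFATC1) to 3.27 Mb (PRDM16) from a chromosome end, and the median gap to the next SS18::SSX peak was below 1 kb in each. Their strength varied widely within a gene. In PTPRN2 the −log10 q ranged from 1.38 to 15.5 with a median of 4.46, in NFATC1 from 1.95 to 15.8 with a median of 5.10, and in CDH4 from 1.93 to 22.1 with a median of 4.55.

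Genes of several developmental families hosted a site more often than protein-coding genes at large, of which 10.2% did, although FGF pathway genes had fewer sites per Mb. The families were chosen with earlier results of these data known, and their counts are a description. Long genes offer more room for sites and short genes lie almost wholly near a TSS, so the sites per Mb of gene body are given with each family beside its count of genes. Developmental transcription factors hosted a site in 79 of 214 genes (36.9%), with 173 sites and 20.3 per Mb against 3.31 per Mb over all protein-coding genes. Their genes are short (median 6.57 kb), their sites lay at a median of 2308 bp from a TSS, and 23.7% were within 1 kb of one against 15.3% over all protein-coding genes. Only 18 of the 173 lay within 5 Mb of a chromosome end. PAX5 led with 13 intronic sites, PAX2 had 11 and LMX1B 7, and all but 1 in PAX5 lacked an SS18::SSX peak with MS67. Of the 173 sites of this family 11 (6.36%, 3.22 to 11.1) had one, against 4.67% of the sites in all protein-coding genes.

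Axon guidance genes, which encode secreted cues and their receptors, followed a different layout. Of 72 genes 31 (43.1%) hosted a site (5.15 sites per Mb), almost all intronic (74 of 78), at a median of 46212 bp from a TSS and mostly far from chromosome ends (7 of 78 were within 5 Mb). ROBO2 had 12, SEMA3E 10 and ROBO1 8, and none of these 30 was kept. Of the 78 axon guidance sites 1 was kept (1.28%, 0.0325 to 6.94), against 4.67% of the sites in all protein-coding genes. Beyond 5 Mb of a chromosome end, 97.8% of all gene-body sites without WDR5 lacked an SS18::SSX peak with MS67. In the WNT pathway 21 of 70 genes hosted a site (7.74 per Mb), led by the stem cell receptor LGR5 with 9 intronic sites, and FZD8, a receptor gene of 4.05 kb, had 3 in its exons. In the Hedgehog pathway it was 7 of 14 genes (8.79 per Mb), with 2 sites each in the ligand gene DHH, the receptor gene PTCH1 and the transcription factor gene GLI3. For TGF-beta and BMP it was 11 of 51 genes (6.49 per Mb), with 8 sites in the receptor gene BMPR1B, 3 in BMP5 and 2 in BMP2. Of the 36 FGF pathway genes 8 hosted one, among them FGF8 and FGF18 with 2 each and FGF4 with 1, but their 3.06 sites per Mb were below the 3.31 of all protein-coding genes. In the Notch pathway 6 of 26 genes hosted one (4.27 per Mb), among them JAG2 with 2 and JAG1 and HES6 with 1 each. Within 5 Mb of a chromosome end lay 5 of the 7 Notch sites, 4 of 40 in the WNT and 2 of 10 in the FGF pathway. None of the 10 Hedgehog or 21 TGF-beta and BMP sites lay there.

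Matrix, adhesion and channel genes were hosts as well. Collagens held sites in 15 of 44 genes (6.73 sites per Mb), with 13 in COL20A1 near the end of chromosome 20, of which 5 were kept, 6 in COL9A1 and 4 in COL14A1. Those 5 were the only ones kept among the 45 collagen sites (11.1%, 3.71 to 24.1). The list of voltage-gated ion channels took all KCN and CACNA symbols and SCN genes, so not all its members are voltage-gated channels. It held sites in 27 of 120 genes (5.92 per Mb), among them the potassium channel genes KCND2 with 17 and KCNG2 with 16. Among cadherins and protocadherins it was 21 of 103 genes (4.17 per Mb), where CDH4 (34) was followed by PCDH9 (9) and PCDH19 (4), and among adhesion GPCRs 8 of 28 (7.32 per Mb), with ADGRA1 (15), ADGRL3 (8) and ADGRL2 (5). Within 5 Mb of a chromosome end lay 19 of 45 collagen, 58 of 114 channel, 36 of 79 cadherin and 21 of 37 adhesion GPCR sites. Over all protein-coding genes it was 1803 of 4565. Protein-coding genes within 5 Mb hosted a site in 20.2% of cases, at 15.9 sites per Mb. The part of chromosome position in the counts of each family was not tested. Cytosolic ribosomal protein genes, which are very short, held a site in 15 of 88, with 2 each in RPL8, RPS3 and RPL36 and 31.6% within 1 kb of a TSS. At 18.9 sites per Mb they were close to the 20.3 of the developmental transcription factors. SWI/SNF subunits (4 of 29, namely ACTL6B with 2 sites and ACTB, ACTL6A and SMARCA2 with 1) and Polycomb subunits (4 of 34, namely CBX8, PCGF1, KDM2B and BCOR) were near the share of all protein-coding genes, with 2.02 and 1.60 sites per Mb. The zinc finger family named ZNF was below it, with 20 of 508 (3.94%) and 1.95 sites per Mb, of which ZNF407 had 13 sites, ZNF469 5 and ZNF385D 4. No subunit gene of the KMT2 complexes hosted a site (0 of 20, which allows a share of up to 15.0%).

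**Figure D3:**
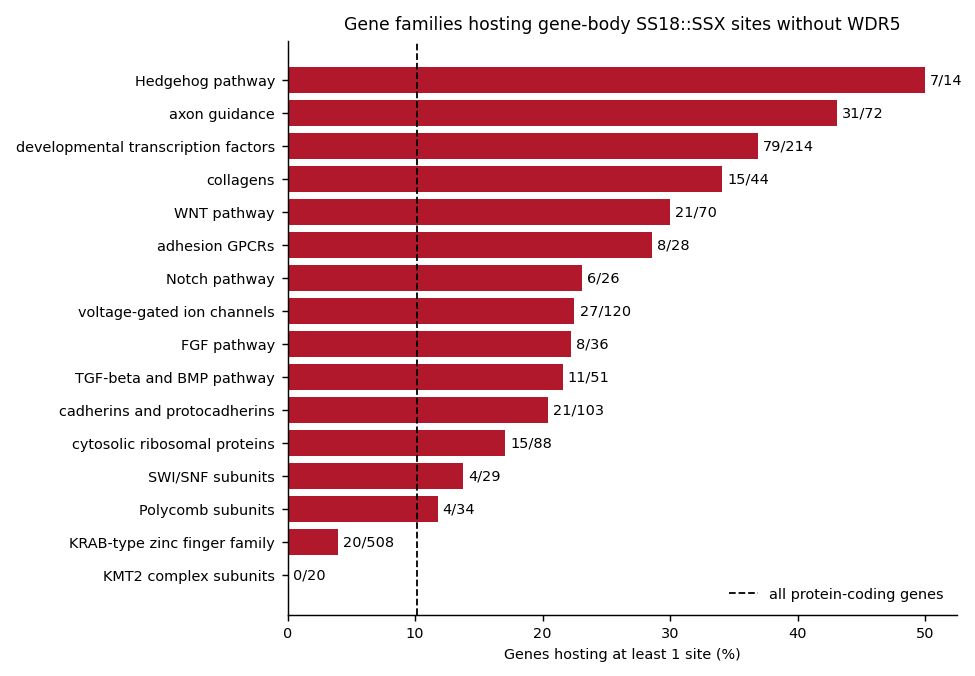
Share of genes in percent, by family or pathway, that host at least 1 gene-body SS18::SSX site without WDR5, with the numbers of genes beside the bars and the share over all protein-coding genes (10.2%) as a dashed line. Hedgehog (7 of 14), axon guidance (31 of 72) and developmental transcription factor genes (79 of 214) have the longest bars, and KMT2 complex genes have none.

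Of 8 genes that the study examined as targets of the fusion or of WDR5, 5 hosted 10 sites of this kind. No SS18::SSX peak with MS67 overlapped any of the 10, as for 94.2% of all SS18::SSX DMSO peaks. SIM2, a basic helix-loop-helix transcription factor, had 5 intronic sites with folds from 2.02 to 4.03. SOX8 had 1 in an intron (fold 2.28) and 1 in its 3′ UTR (2.08), and NTSR1, the neurotensin receptor gene, had 1 in its first intron (3.35), and these 3 genes held no other SS18::SSX DMSO peak. WDR5 was not absent nearby, with a WDR5 DMSO peak 413 bp from the NTSR1 site and 121 and 962 bp from SIM2 sites. From the SOX8 sites it was 3778 and 4964 bp away. The paper reported that MS67 reduced binding of WDR5, of SS18::SSX and of the SWI/SNF subunit SMARCC1 at MNX1, SOX8, NTSR1 and SIM2. MNX1 had 1 in coding sequence (2.42) beside 3 SS18::SSX peaks that overlapped WDR5, and 1 of its 5 SS18::SSX peaks was kept. RPL35 had 1 in an intron (4.26). FOXC1, FZD10 and RPL7 had none. For its CUT&RUN overlaps the paper used SS18::SSX peaks with −log10 q above 3 and a signal value (the fold here) above 3. Of the 10 sites, only the one in NTSR1 and the SIM2 site of fold 4.03 pass both cutoffs.

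After MS67, an SS18::SSX peak overlapped 264 of the 5511 sites, or 4.79% (4.24 to 5.39), compared with 5.81% of all SS18::SSX DMSO peaks. These sites are called kept, and the other 5247 lost. The share was 2.47% when 50% of the peak had to be covered, 7.40% when a peak within 1 kb counted as shared, 12.5% for the sites with −log10 q above 5, and 2.16% without the sites under 5 Mb from a chromosome end. Exonic sites were kept in 45 of 845 cases (5.33%, 3.91 to 7.06) and intronic sites in 219 of 4666 (4.69%, 4.10 to 5.34), and these intervals overlap. With promoters of 2000 bp on either side they were 7.75% (5.29 to 10.9) and 4.38% (3.73 to 5.10), which do not overlap. Under the narrower promoter the share was 7.88% (6.87 to 8.99) for gene-body peaks with WDR5, 5.55% (4.77 to 6.42) for intergenic and 2.68% (1.92 to 3.65) for promoter peaks without WDR5. With 1 library a treatment, none of these differences could be tested. An MS67 peak within 1 kb was present for 496 sites, or 9.00%, and for 10.3% of all SS18::SSX DMSO peaks.

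Whether a site was kept went with its strength in DMSO. When all SS18::SSX DMSO peaks were ranked by −log10 q and cut into 10 equal groups, 0.873% of the sites in group 1, the weakest, were kept, 1.94% in group 5, 5.58% in group 8, 7.54% in group 9 and 24.0% (20.3 to 28.0) in group 10, the strongest, where −log10 q was at least 7.62. In group 10 the share was 28.7% for exonic sites (19.5 to 39.4), 23.0% for intronic sites (19.0 to 27.4), 23.9% for intergenic peaks without WDR5 (19.2 to 29.0) and 30.5% for gene-body peaks with WDR5 (25.5 to 35.8), with overlapping intervals.

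**Figure D4:**
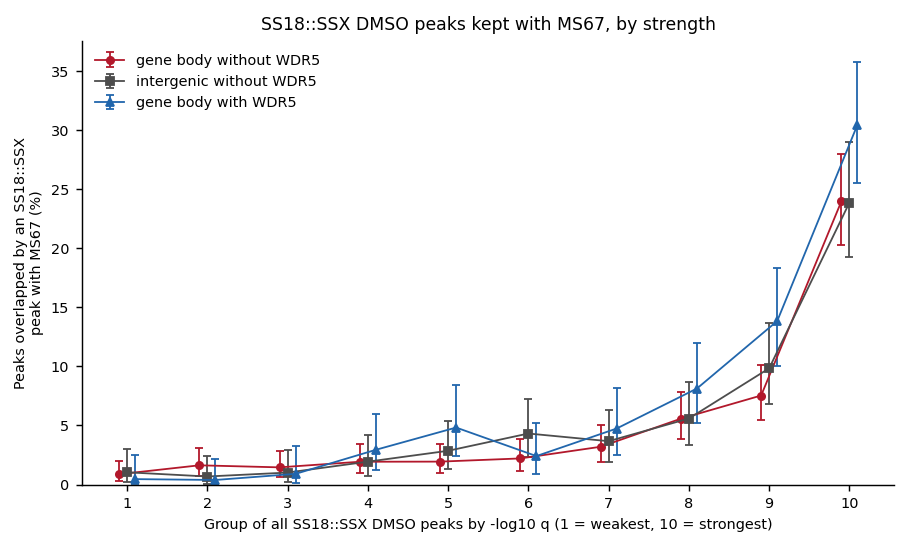
Share of SS18::SSX DMSO peaks in percent that an SS18::SSX peak with MS67 overlaps, by group of −log10 q over all 15141 peaks (10 groups of equal size, 1 the weakest), for gene-body sites without WDR5, intergenic peaks without WDR5 and gene-body peaks with WDR5; bars are exact 95% intervals. All 3 classes stay below 10% up to group 8 and reach 23.9% to 30.5% in group 10.

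Kept sites were wider than lost sites, with no higher fold. The median width was 512.5 bp for kept and 196 bp for lost sites, whereas the median fold was 3.37 and 3.81. Kept sites had more fragments over a higher background, with a median pileup of 41 against 18 and a median background of 12.1 against 3.69. Their median −log10 q was 6.91 against 3.55. Of the sites up to 300 bp wide 1.72% were kept, of those over 1000 bp 53.3% (49 of 92, interval 42.6 to 63.7). The order held within group 10 of strength, with 6.85% kept up to 300 bp, 17.8% from over 300 to 600 bp, 37.0% from over 600 to 1000 bp and 59.1% above. In that group the median pileup also went up with width, from 32 up to 300 bp to 68 above 1000 bp. The parts of width and of pileup were not tested. A wide peak offers more bases to overlap, so the summit alone was also placed on the MS67 peaks. It fell inside one for 1.11% of the sites up to 300 bp and for 37.0% of those over 1000 bp, and for 3.14% of all sites. Of the sites over 1000 bp wide 84.8% were within 5 Mb of a chromosome end.

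**Figure D5:**
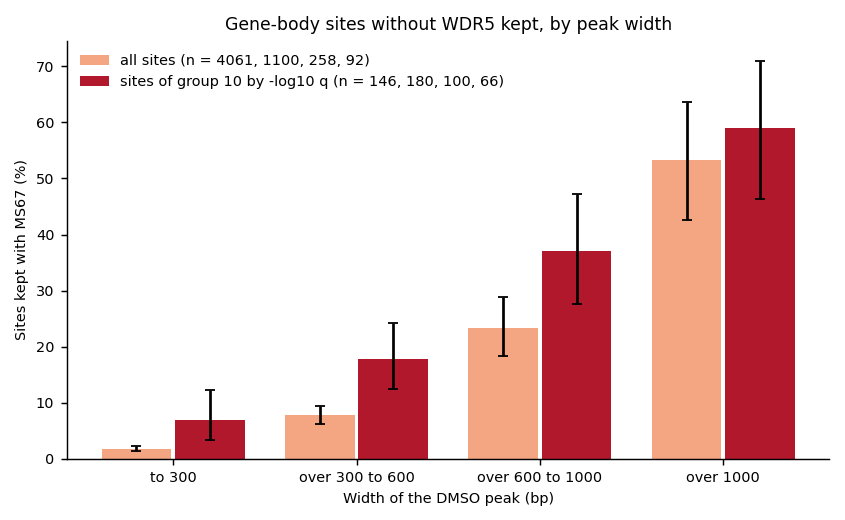
Share of gene-body SS18::SSX sites without WDR5 in percent that an SS18::SSX peak with MS67 overlaps, by width of the DMSO peak in bp, for all sites and for those in group 10 of −log10 q; bars are exact 95% intervals and the numbers of sites stand in the key in the order of the widths. Both series increase with each step of width, from 1.72% to 53.3% and from 6.85% to 59.1%.

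Kept sites were concentrated at chromosome ends, where 191 of the 264 (72.3%) lay. The share kept was 8.94% (7.76 to 10.2) within 5 Mb and 2.16% (1.70 to 2.71) beyond. In group 10 of strength it was 33.8% (28.2 to 39.8) within and 11.8% (7.87 to 16.8) beyond. Where the background was not raised the shares were 7.13% (5.82 to 8.62) and 2.01% (1.54 to 2.57), and in raised bins 12.2% (9.98 to 14.8) and 3.83% (1.93 to 6.75). Gene-body peaks with WDR5 in group 10 showed the same order, with 44.9% kept within 5 Mb and 21.2% beyond.

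The kept sites usually had a lower fold with MS67 than with DMSO, while median pileups at intronic sites were alike. The MS67 values are those of the overlapping MS67 peak of highest −log10 q, at its own summit. That summit can lie elsewhere, since the DMSO summit fell inside an MS67 peak at 173 of the 264 kept sites. The 219 intronic sites drew on 206 MS67 peaks and the 45 exonic sites on 43. For the 45 exonic sites the median fold was 3.59 with DMSO and 2.90 with MS67, and 36 of them had the higher fold with DMSO. Their median pileup was 42 and 38, with 34 higher with DMSO. For the 219 intronic sites the median fold was 3.36 and 2.67, with 183 higher with DMSO, but the median pileup was 40 and 41, with 95 higher with DMSO. The sites were chosen by their DMSO calls, and coverage was higher in the MS67 library. Each fold is relative to the background of its own library, and no spike-in scale was applied here.

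The strongest intronic site lay in the first intron of the lncRNA gene ENSG00000283360 on chromosome 1 (chr1:161459899-161460169), with a fold of 23.2 and a pileup of 38 over a background of 0.682. It was also the strongest of the kept intronic sites by −log10 q with MS67, at a fold of 15.3 and a pileup of 26. An exonic site in the lncRNA gene ENSG00000285628 on chromosome 16 was alike in shape, 350 bp wide, with a fold of 12.2 with DMSO and 10.1 with MS67. Both lay on low background and far from a chromosome end, and the 31 bases at each summit occur 1 time in hg38.

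Most of the other strong sites that were kept were broad and lay near chromosome ends. The site in the lncRNA gene ENSG00000234210 on chromosome 7 was 1430 bp wide and had a fold of 5.56 with DMSO and 3.31 with MS67. At the MGMT array the fold was 5.88 and 2.74, with pileups of 75 and 35. In KNDC1, a guanine nucleotide exchange factor gene, it was 5.21 and 2.95. ENSG00000266924 on chromosome 18 (3.80 and 2.04) and LINC01749 on chromosome 20 (3.33 and 2.09) had pileups of 117 and 121 with DMSO and 98 and 92 with MS67. In these sites the fold was lower with MS67 in every case, and the pileup differed most at MGMT.

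At some kept sites the folds of the 2 treatments were closer, or the higher one was with MS67. The site in NFATC1 had a fold of 2.95 with DMSO and 3.06 with MS67, and the coding-exon site in IDUA, the gene of a lysosomal enzyme, 3.21 and 3.77. The 2 IDUA peaks overlapped only in part, at chr4:1000676-1001300 with DMSO and chr4:1000529-1000795 with MS67. MCF2L gave 3.74 and 3.57, the coding-exon site in TERT, the catalytic subunit of telomerase, 3.82 and 3.53, while the lncRNA exon in ENSG00000267665 gave 5.14 and 3.85. Among the strongest exonic sites, the 3′ UTR site in JAKMIP3 (4.32 and 2.40) and the coding site in TMEM184A (3.98 and 3.30) were also kept. In JAKMIP3 the 2 peaks too overlapped only in part, at chr10:132169857-132170814 with DMSO and chr10:132170693-132171005 with MS67.

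Other strong sites were lost. The coding-exon site in THSD7A had a fold of 8.30, a pileup of 55 and a width of 269 bp. The site in RELN had a fold of 5.39, a pileup of 72 and a width of 236 bp, and the one in PARD3 5.05, 61 and 247 bp. These 3 were tall and narrow, and no MS67 peak overlapped them. GSX1, a homeobox gene of the developing brain, lost a coding-exon site that was 1120 bp wide with a fold of 4.35. CDH4 showed both outcomes within a short stretch. Its site of 712 bp with a fold of 3.34 and a pileup of 118 was lost. The next site, 798 bp wide and 331 bp away, was kept with a fold of 3.02 with DMSO and 2.10 with MS67, and so was the one after it, 1163 bp wide, with 2.71 and 2.40.

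WDR5 was rarely called at these sites after MS67 either. A WDR5 MS67 peak overlapped 149 of them, or 2.70% (2.29 to 3.17). For peaks that also lacked WDR5 in DMSO the share was 2.53% between genes and 8.67% at promoters. It was 11.2% over all SS18::SSX DMSO peaks, which include those with WDR5 in DMSO. Coverage was low in the WDR5 MS67 library, at 0.168 against 0.368 with DMSO. For the gene-body sites without WDR5 the share was 1.00% with stricter peaks in all lists (defined in the last paragraph) and 4.28% when a peak within 1 kb counted as shared. It was 4.38% (3.10 to 5.99) at exonic and 2.40% (1.98 to 2.88) at intronic sites. At gene-body peaks that had WDR5 with DMSO the share was 26.0% (24.3 to 27.7), which the rule of no WDR5 in DMSO bears on directly. Of the 264 kept sites 9 had a WDR5 MS67 peak.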

How the data were processed

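CUT&RUN was performed on HSSY II cells, and the authors mapped reads to hg38 and the mouse spike-in genome, removed duplicates and called peaks per library with MACS2. The submitters' processing notes name SAMtools (1.9), Picard, bedtools (2.28.0), MACS2 and deepTools (3.3.0). The deposited narrowPeak files give a fold (a ratio), the −log10 of p and q, and a score that was not used here. No control library was analysed here, and 1 library per group stands for each condition.

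Coordinates were read against hg38 and GENCODE 44 (TSSs and exons of transcripts tagged basic). An overlap was at least 1 bp. Pileup and background were solved from the fold and −log10 p, within 0.001. Shares have exact Clopper-Pearson intervals of 95%. A limit for 0 uses 3 counts. Host genes were protein-coding before lncRNA, then by nearest TSS. Named genes hosted the strongest DMSO sites (8 intronic, 6 exonic), the most sites (6 genes), the strongest MS67 peaks (6 intronic, 4 exonic), were examined as targets by the study, or led the 17 families (up to 3 each). A family and a gene that this rule names are not reported here. The ONECUT1 and TLX1 sites were chosen for sequence by −log10 q within kept or lost sites and distance to the end. The members, families and this choice were made with earlier results of these data known. Sequence was read from hg38. The genome used is all in capitals, so repeats were not marked. The scripts were tested on simulated data and used Python 3.11.15, NumPy 2.4.6, pandas 2.3.3, SciPy 1.17.1, pysam 0.24.0 and matplotlib 3.10.9.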

Additional observations from a re-analysis of the deposited data

Results flagged for a closer look

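Of the 1175 SS18::SSX peaks with MS67, 142 (12.1%, exact 95% interval 10.3 to 14.1) were centered in a gene body and overlapped no SS18::SSX or WDR5 peak of the DMSO-treated cells, which makes them a signal outside the comparisons above. They were 14 exonic and 128 intronic peaks, 59 lay within 1 kb of an SS18::SSX DMSO peak, and 24 (16.9%) lay within 5 Mb of a chromosome end. Their median fold was 3.15 and their median −log10 q 3.01. One of them stood far above the rest: an exonic peak in ASH1L, the gene of a histone H3 lysine 36 methyltransferase (chr1:155438339-155439428), had a −log10 q of 87.5, a fold of 14.5 and a pileup of 117, and the nearest SS18::SSX DMSO peak was 160147 bp away. The next was an intronic peak in PARD3 with a −log10 q of 7.35, 115 bp from a DMSO peak. ASH1L and PARD3 are named here after their values were seen.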

How the results depend on the processing

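No paired analysis was possible because each group had 1 library and no result came from a test between treatments. Of 78 recomputed values (6 results under 13 alternatives, 3 of which were chosen after seeing the data), 47 stayed within the exact interval of the reported share, or within 1.5 times the reported number, and 31 moved; the cause was not tested. When 50% of the peak had to be covered, 2.47% of sites (2.09% of exonic, 2.54% of intronic) were kept and 2.00% had a WDR5 MS67 peak. When a peak within 1 kb counted as shared, exons held 13.1% of sites, 7.40% (exonic 9.16%, intronic 7.13%) were kept and 4.28% had WDR5 with MS67. Stricter peaks had −log10 q above 3 and a fold above 3 for SS18::SSX or above 6 for WDR5, in all lists. These are the cutoffs that the paper gave for its overlaps of CUT&RUN peaks. They gave an exon share of 16.4%, 3.23% kept (intronic 3.07%) and 1.00% with WDR5. A −log10 q above 5 for the SS18::SSX DMSO peaks left 1489 sites, of which 12.5% were kept (exonic 15.2%, intronic 12.0%). Merging SS18::SSX peaks within 1 kb gave an exon share of 13.9% and 3.97% kept (intronic 3.82%). A promoter of 2000 bp to either side lowered the exon share to 9.80%, with 7.75% of exonic sites kept and 1.98% of sites with WDR5. Protein-coding genes alone gave an exon share of 14.2%, and every transcript (chosen after seeing the data) 16.5%. Without regions of raised background 3.59% were kept (intronic 3.43%). Without the sites under 5 Mb from a chromosome end (chosen after seeing the data), 3375 sites were left, of which 2.16% were kept (exonic 2.31%, intronic 2.14%). Leaving out summits of repeated sequence (chosen after seeing the data), the summit in place of the center, and 1 transcript per gene moved none of the 6 results. The files list only called peaks, so signal below the calling threshold could not be seen.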
